A study of Homo sapiens with 4 samples.

Results

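The genes described here encode the proteins of the mitochondrial ribosome. They were chosen by symbol, as the rows of the deposited expression table whose name starts with MRPL or MRPS and a number. The pattern matched 82 of the 20804 rows. Of these, 78 are protein-coding genes, 49 with an MRPL symbol (large subunit) and 29 with an MRPS symbol (small subunit). The other 4 are the pseudogenes MRPL45P2, MRPS31P5 and MRPL42P5 and the antisense gene MRPL23-AS1, which are set apart below.

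RNA was sequenced from MDA-MB-231, an established human line of triple-negative breast cancer, with 2 libraries from the wild type (WT) and 2 from cells labelled miR-3662-KO (KO). No other genotype, treatment or time point is given, and both groups are the same cell line. The series title names CRISPR interference and activation and the design text names sorting by the activity of the microRNA, so how the KO cells were made, and whether they are a clone, is not clear from the labels. Nothing says that the 2 libraries of a group came from separate cultures, so p-values measure the spread between these libraries, which may be technical.

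Mitochondria keep a small genome of their own, and the mitochondrial ribosome translates the few messages it encodes, all of them core subunits of the respiratory chain and ATP synthase. The ribosomal RNAs come from the mitochondrial genome, whereas every protein of the ribosome is encoded in the nucleus, made in the cytosol and imported. Many of these proteins have counterparts in bacteria and others occur only in mitochondria. In actively growing tumour cells these genes are broadly expressed.

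The symbols do not match the structure in every case. MRPS18A and MRPS30 carry small subunit names but sit in the large subunit, and MRPS36 is known as a component of the 2-oxoglutarate dehydrogenase complex. A further 5 ribosomal proteins have other symbols (DAP3, PTCD3, CHCHD1, AURKAIP1 and GADD45GIP1) and are given separately.

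The microRNA named in the labels is shown first because its loss defines the groups. Its mature sequence in RefSeq (GRCh38.p14, chromosome 6 from 134979355 to 134979378, minus strand) is given with the seed, bases 2 to 8, in capitals. The longest 3′ UTR that GENCODE 29 gives for each member was searched for a match of 7 bases to that seed, and the site of MRPS33 is shown because MRPS33 was the only member with a site that passed the test.
hsa-miR-3662: gAAAAUGAugaguagugacugaug
MRPS33 site: tttataaaTCATTTTccaagaaa

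The capitals in the MRPS33 line mark TCATTTT, the complement of the seed. The MRPS33 site starts at base 3783 of a 3′ UTR of 3820 bases, while the matched MRPS33 transcripts had a mean length of 2547 bases. Whether the transcripts in these cells hold the site was not tested. Of the 78 protein-coding members, 12 (15.4%) had at least 1 site, against 33.5% of 10868 tested genes with an annotated 3′ UTR. The members' 3′ UTRs were also shorter, with a median of 493.5 bases against 1374 bases. The median log2 fold change was 0.12 in the 12 members with a site and -0.019 in the 66 without, and 0.089 and 0.059 in all tested genes with and without a site. Of the 12, MRPS33 was higher in KO and none was lower. Among all 3638 tested genes with a site, 512 were higher and 302 lower. A match of these letters is a description and not a shown target.

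In the promoters, 4 motifs were sought on both strands of the RefSeq windows from 250 bases before to 50 bases after each start site. They were GCGCNTGCG for NRF1 (a regulator of nuclear genes for mitochondria), CCGGAAGT for ETS factors such as GABPA, the E-box CACGTG bound by MYC and other factors, and AAGATGGCG for YY1. None of the letter patterns contains another. Windows were found for 70 of the 78 members. The 4 stretches below belong to the members with the largest changes whose upstream part holds a motif, and the motif is in capitals. The MRPL18 window belongs to a start site that RefSeq places inside the span given for the gene below.
MRPS2 (E-box, chr9:135499899-135499924, plus strand): acggccaggtCACGTGactggggagc
MRPS33 (NRF1, chr7:141015088-141015116, minus strand): agccttactgCGCAGGCGCcaggtacacc
MRPL18 (ETS, chr6:159790430-159790457, plus strand): gggacttgctACTTCCGGgtcggtggcg
MRPS9 (NRF1, chr2:105038019-105038047, plus strand): cgcgccattaGCGCCTGCGccgtctctag

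The YY1 pattern was present in 18.6% of the 70 members, against 5.10% of 9400 tested genes and 2.14% of all 27305 genes with a window. The ETS pattern was present in 17.1% of members, against 10.9% of tested genes and 4.95% of all genes. The NRF1 pattern was in 17.1% of members and 18.3% of tested genes (9.01% of all genes), and the E-box in 14.3% and 12.9% (8.77% of all genes). Among members past the test, the NRF1 pattern was in 4 of the 7 higher genes (MRPS33, MRPL17, MRPL34 and MRPS18C) and in 2 of the 9 lower genes with a window (MRPS9 and MRPL14). The E-box was in 2 of these 7 and 2 of these 9, and the ETS pattern in 1 and 1. The YY1 pattern was in none of the 7 and in 1 of the 9. These shares describe the windows and were not tested.

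The libraries had the profile of the labelled line. VIM, MSN, AXL, CD44 and CAV1, which mark MDA-MB-231, all stood at 103.86 FPKM or more in every library (FPKM scales fragments by transcript length and by the library's total, so levels of different genes can be compared). Of these, CAV1 differed between the groups, at 178.92 and 170.49 FPKM in WT and 442.8 and 449.72 in KO (1.35, limma adjusted p 0.00054). ESR1 and CDH1 were at 0.03 FPKM or less and ERBB2 between 8.55 and 11.44. EPCAM was at 1.08 and 1.15 FPKM in WT and lower in KO, at 0.34 and 0.05 (-0.83, limma adjusted p 0.0103). The part of these marker differences in the results was not tested. Of the leukocyte markers, PTPRC and CD3E were listed at 0 in all 4 libraries and CD14 was at 0.25 or less, and the endothelial markers PECAM1, CDH5 and VWF were at 0.29 or less. The depth of the libraries is unknown, since the table holds no counts. The loss of the microRNA cannot be checked in this table.

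All 78 protein-coding members were detected, and all reached at least 1 FPKM in 2 or more libraries, the minimum for the test. MRPL51, a large subunit protein found only in mitochondria, was the most abundant, at 187.84 and 212.2 FPKM in WT and 221.72 and 276.97 in KO. MRPS24 followed at 219.48 and 237.12 in WT and 205.01 and 228.91 in KO. MRPL37 stood at 194.2 and 203.44 FPKM in WT and 173.74 and 177.75 in KO. Both WT values of MRPS24 were above those of MRPL51, whereas in KO the values of these genes overlapped, so their order over all libraries does not go beyond the spread. MRPS34, MRPL41 and MRPS15 were also among the highest members of their subunits, between 129.93 and 195.38 FPKM in every library.

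At the other end, MRPS14 was at 7.86 and 9.1 FPKM in WT and 6.01 and 6.73 in KO. MRPL22, MRPL42, MRPS25 and MRPS31 lay between 13.00 and 21.12 FPKM. MRPL45 stood apart. This protein lines the exit of the peptide tunnel and ties the ribosome to the inner membrane, yet its row held 1.22 and 1 FPKM in WT and 1.35 and 1.45 in KO, below every other protein-coding member. The row of its pseudogene MRPL45P2 was higher, at 3.48 and 3.09 FPKM in WT and 3.59 and 3.56 in KO. The sources used here do not say how reads shared by such copies were assigned, so the level of MRPL45 is uncertain. The same holds in principle for the 34 members that have pseudogenes named after them in GENCODE 29 (75 pseudogenes in all, 8 of them for MRPS21). The remaining pseudogene and antisense rows were low, with MRPS31P5 between 1.19 and 2.05 FPKM and MRPL42P5 and MRPL23-AS1 at 0.12 or less.

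**Figure D1:**
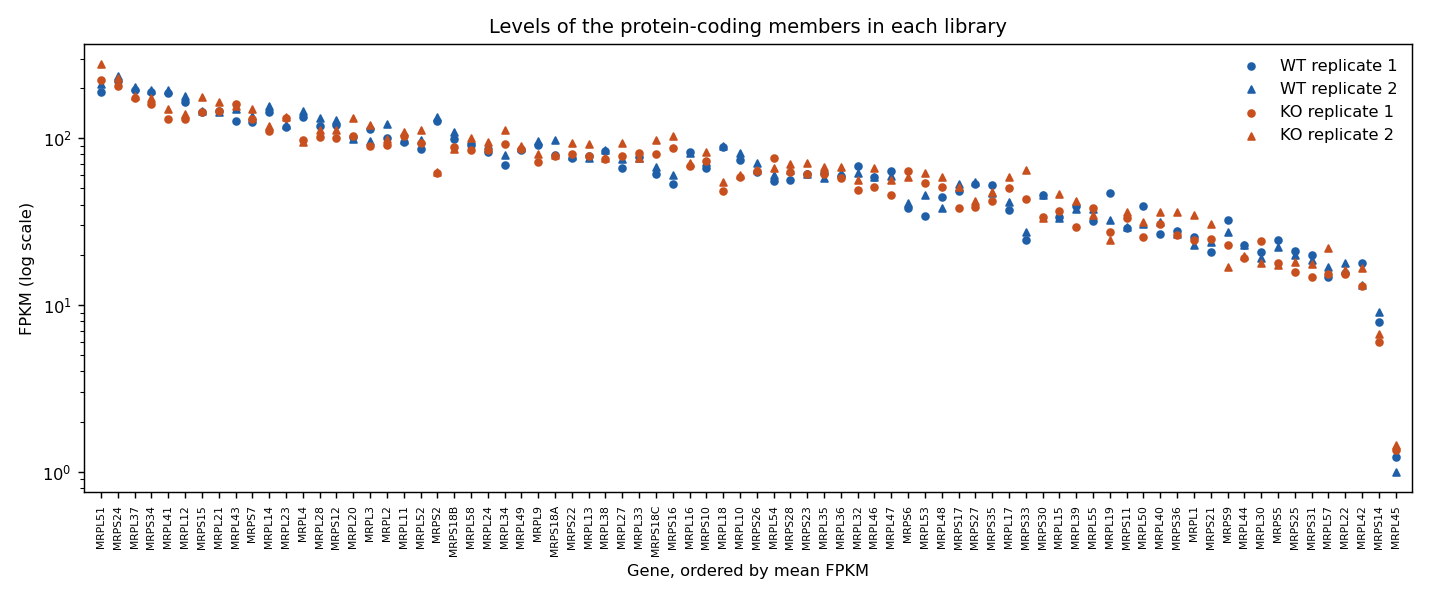
FPKM on a log axis of each of the 78 protein-coding members, ordered by mean level, with WT in blue and KO in orange (circles replicate 1, triangles replicate 2). Most members lie between about 10 and 250 FPKM with the groups intermingled, and MRPL45 sits alone near 1 FPKM.

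The summed level of the 78 genes was 5781 and 6062 FPKM in the WT libraries and 5483 and 6118 FPKM in the KO libraries. The KO libraries held both the lowest and the highest sum, so the groups overlapped. As a share of all FPKM the set made up 1.15% and 1.17% in WT and 1.04% and 1.12% in KO, so both KO shares lay below both WT shares. The totals that divide these shares were themselves higher in KO, at 528986 and 544650 FPKM against 504102 and 520527 in WT. In 68.0% of all tested genes the FPKM values of the groups also did not overlap. The large to small subunit ratio of the sums was 1.92 and 1.89 in WT and 1.89 and 1.88 in KO.

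Single members nevertheless differed between the groups. Of 78 tested protein-coding members, 17 (21.8%) passed limma at a Benjamini-Hochberg adjusted p under 0.05, against 27.0% of all 11786 tested genes. Of the 17, 7 were higher in KO (8.97%, against 16.2% of tested genes) and 10 were lower (12.8%, against 10.8%). Neither MRPL45P2 nor MRPS31P5, the tested pseudogenes, passed. The members' share of changed genes was thus no larger than the background. In 51 of 78 members the KO and WT values did not overlap, against 68.0% of all tested genes. In bulk RNA, a lower level in every cell and fewer cells with a high level cannot be told apart.

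The balance of the members shifted when the libraries were scaled by the median of ratios. Then 3 of the 78 members were higher, against 13.2% of all tested genes, and 13 were lower, against 13.7% of all tested genes. Of the 17 calls, 13 were kept. The 4 calls lost were rises, those of MRPL17, MRPL34, MRPL53 and MRPS18C, with adjusted p of 0.0585, 0.0609, 0.0637 and 0.0587. The median log2 fold change was 0.0066 over the 78 members and 0.074 over all tested genes, and -0.063 and 0.013 after scaling.

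The large and small subunit genes were then compared. Of 49 MRPL genes 3 rose (6.12%) and 6 fell (12.2%), with a median log2 fold change of 0.039. Of 29 MRPS genes 4 rose (13.8%) and 4 fell (13.8%), with a median of -0.074. Of all tested genes 16.2% rose and 10.8% fell (13.2% and 13.7% after scaling). After scaling no MRPL gene rose and 8 fell (median -0.031), and 3 MRPS genes rose and 5 fell (median -0.14). With MRPS18A and MRPS30 counted in the large subunit and MRPS36 left out, 3 of 51 large subunit genes rose and 7 fell, and 4 of 26 small subunit genes rose and 3 fell. The range was wider in the small subunit, from -1.06 for MRPS2 to 1.00 for MRPS33, than in the large subunit, from -0.78 for MRPL18 to 0.53 for MRPL53. Whether the subunits differ was not tested.

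**Figure D2:**
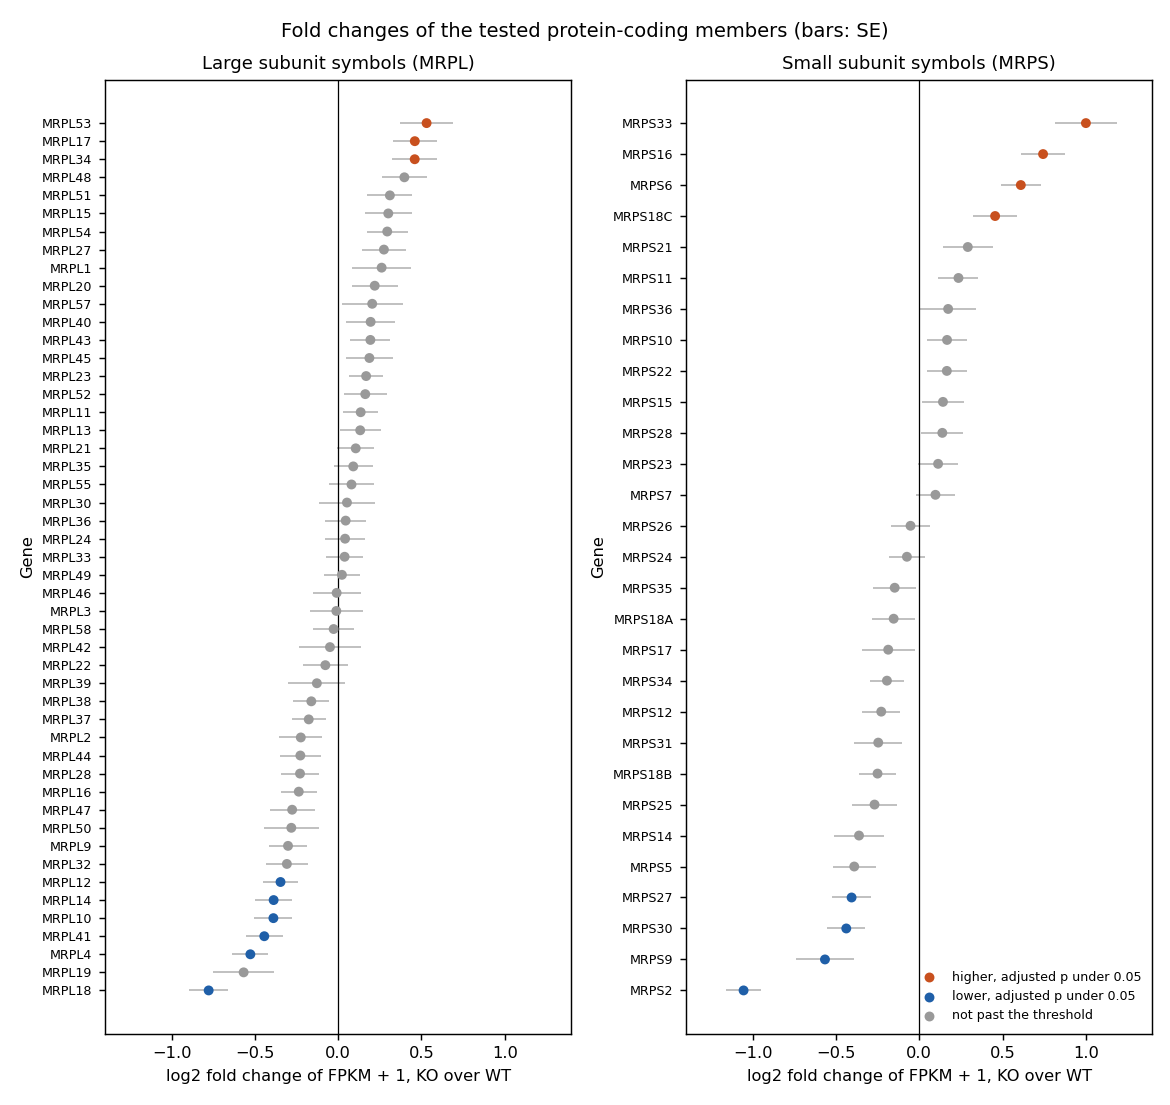
Log2 fold change of FPKM + 1 (KO over WT) with its SE for the 49 MRPL genes (left) and the 29 MRPS genes (right), with genes past the threshold in orange (higher) or blue (lower). Both panels run evenly across 0, and the largest changes, of MRPS2 and MRPS33, are in the small subunit.

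MRPS2, a small subunit protein with a bacterial counterpart, fell the most. It was at 126.57 and 134.11 FPKM in WT and at 61.81 and 62.57 in KO, which is -1.06 ± 0.11 (SE) as a log2 fold change (limma adjusted p 0.0016). The groups were far apart, with KO values almost equal to each other. MRPS9, which reaches the peptidyl tRNA site from the head of the subunit, was at 32.41 and 27.35 FPKM in WT and at 23.04 and 16.97 in KO (-0.57 ± 0.17, limma adjusted p 0.0461). MRPS27, an RNA-binding protein of the pentatricopeptide type, was at 53.11 and 54.68 FPKM in WT and at 38.78 and 42.11 in KO (-0.41 ± 0.12, limma adjusted p 0.0378). MRPS30, in the large subunit despite its symbol, was at 45.71 and 45.84 FPKM in WT and at 33.82 and 33.22 in KO (-0.44 ± 0.11, limma adjusted p 0.0279). In each of these 4 genes both KO values were below both WT values. The genes were picked by a test on the same values, so such separation adds no support, here or for the genes below.

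Among small subunit genes that rose, MRPS33, a protein found only in mitochondria, was at 24.59 and 27.37 FPKM in WT and at 43.4 and 64.45 in KO. Its log2 fold change of 1.00 ± 0.19 had an adjusted p of 0.0094 in limma. The KO values were well above WT but differed widely from each other. MRPS16, a protein with a bacterial counterpart whose loss causes a fatal respiratory chain disease of infancy, was at 52.94 and 59.8 FPKM in WT and at 87.3 and 103.07 in KO (0.74 ± 0.13, limma adjusted p 0.0077). MRPS6 was at 37.88 and 40.93 FPKM in WT and at 63.16 and 58.16 in KO (0.61 ± 0.12, limma adjusted p 0.0109). The inositol transporter gene SLC5A3 overlaps MRPS6 and rose as well, from 2.78 and 2.33 FPKM to 7.48 and 5.87, and reads of the 2 genes may not be told apart. MRPS33 and MRPS16 have 3 named pseudogenes each and MRPS6 has 2. Of the 17 genes past the threshold, 7 overlap another row of the table, against 23 of all 78 members.

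MRPS18A, MRPS18B and MRPS18C are paralogs that descend from a single bacterial protein and occupy different places in the ribosome. MRPS18C rose, from 61.35 and 67.61 FPKM in WT to 80.69 and 97.44 in KO (0.46 ± 0.13, limma adjusted p 0.0391). FAM175A, which overlaps MRPS18C, also rose, from 2.97 and 2.48 to 4.78 and 6.39 FPKM. MRPS18B was at 98.83 and 108.33 FPKM in WT and at 88.08 and 85.56 in KO (-0.25, limma adjusted p 0.128), so it did not pass. MRPS18A, in the large subunit, was at 78.97 and 97.07 FPKM in WT and at 78.26 and 78.94 in KO (-0.15, limma adjusted p 0.404). Whether the paralogs differ in their change was not tested.

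Of the large subunit genes, MRPL18, a protein of the central protuberance, fell the most. It was at 87.99 and 89.9 FPKM in WT and at 48.23 and 54.91 in KO (-0.78 ± 0.12, limma adjusted p 0.0050). MRPL4, which lines the peptide tunnel, was at 133.34 and 145.61 FPKM in WT and at 97.91 and 94.87 in KO (-0.53 ± 0.11, limma adjusted p 0.0129). MRPL41, a protein specific to mitochondria, was at 185.57 and 193.16 FPKM in WT and at 129.93 and 148.56 in KO (-0.44 ± 0.11, limma adjusted p 0.0254). MRPL14, a protein of the face that meets the small subunit, was at 142.59 and 155.79 FPKM in WT and at 109.91 and 117.61 in KO (-0.39 ± 0.11, limma adjusted p 0.0365). In all 4 the groups were apart.

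The stalk recruits translation factors to the ribosome, and its 5 listed genes split. MRPL10, at its base, was at 74.03 and 81.6 FPKM in WT and at 58.21 and 60.04 in KO (-0.39 ± 0.11, limma adjusted p 0.0410). MRPL12, the stalk protein that also binds the mitochondrial RNA polymerase, was at 164.85 and 178.52 FPKM in WT and at 130.56 and 139.04 in KO (-0.35 ± 0.11, limma adjusted p 0.0487). MRPL53 rose, from 34.26 and 45.59 FPKM to 53.81 and 61.56 (0.53 ± 0.16, limma adjusted p 0.0441). MRPL11 (0.14) and MRPL54 (0.29) did not pass. Thus 1 of the 5 stalk genes rose and 2 fell, against 16.2% and 10.8% of all tested genes. The difference was not tested.

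The last 2 rises were of proteins with bacterial counterparts. MRPL17 was at 37.22 and 41.15 FPKM in WT and at 49.95 and 58.83 in KO (0.46 ± 0.13, limma adjusted p 0.0379). MRPL34 was at 68.68 and 78.73 FPKM in WT and at 92.5 and 111.34 in KO (0.46 ± 0.13, limma adjusted p 0.0409). In both, the lower KO value was above the higher WT value. Of 7 genes of the central protuberance only MRPL18 passed, and of 8 genes of the tunnel exit none passed in limma. Of all tested genes 27.0% passed. Among the 8 were MRPL45 (0.19, limma adjusted p 0.356) and MRPL44, which carries an RNase III fold (-0.23, limma adjusted p 0.204). MRPL58, a peptidyl-tRNA hydrolase that became part of the ribosome, was at 90.87 and 96.86 FPKM in WT and at 84.63 and 100.09 in KO, and MRPS36 was at 27.74 and 26.69 in WT and at 26.12 and 36.31 in KO. Neither passed.

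**Figure D3:**
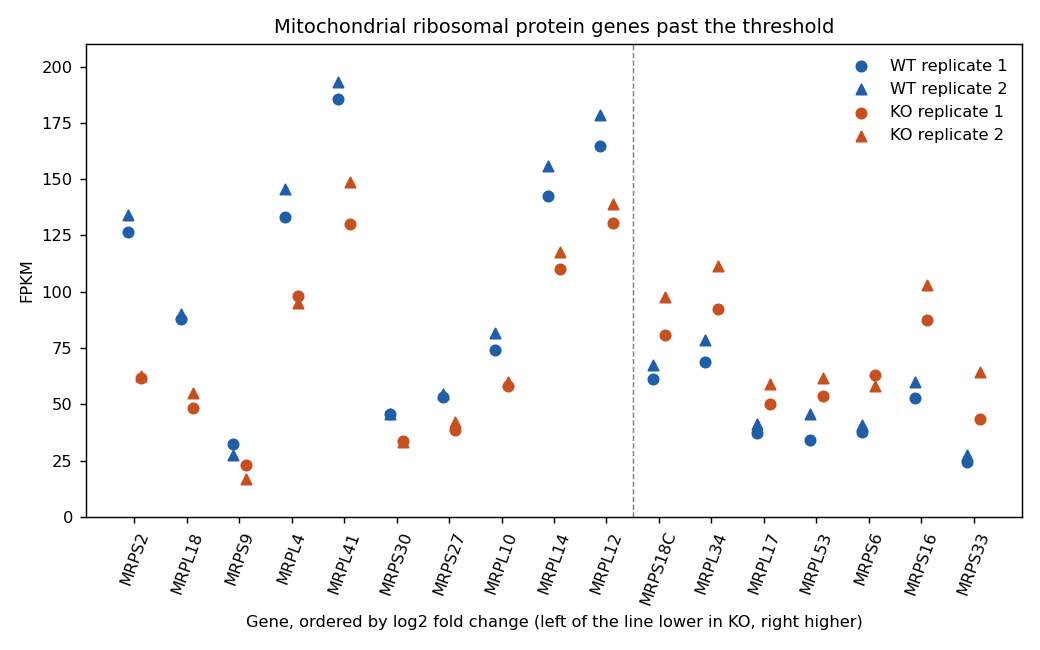
FPKM in each library of the 17 members past the threshold, ordered by fold change, with WT in blue and KO in orange (circles replicate 1, triangles replicate 2). For each gene both KO values lie on 1 side of both WT values, and the gap is widest for MRPS2. The genes were picked by a test on these same values, and KO and WT values also did not overlap in 68.0% of all tested genes.

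The 17 calls differed in how far they rested on single libraries. With each library left out in turn, MRPS2, MRPL18, MRPS16 and MRPS33 passed in all 4 fits, with a highest adjusted p of 0.0080, 0.0242, 0.0448 and 0.0380 in limma. MRPL4 did not pass without WT replicate 2 (limma adjusted p 0.0846), nor MRPS6 without WT replicate 1 (0.0641). MRPL10, MRPL12, MRPL14, MRPS27 and MRPS30 did not pass in any of the 4 fits, with a highest adjusted p of 0.221, 0.251, 0.205, 0.160 and 0.116. MRPL17, MRPL34, MRPS18C and MRPS9 passed only without KO replicate 1, MRPL41 only without KO replicate 2 and MRPL53 only without WT replicate 2, and their highest adjusted p were 0.177, 0.201, 0.181, 0.205, 0.125 and 0.231.

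The members were also counted by origin, with no test of the difference between classes. The background was 16.2% rising and 10.8% falling among all tested genes, with a median of 0.074. Of 30 large subunit genes with a bacterial counterpart 2 rose and 5 fell (median 0.040), and of 20 specific to mitochondria 1 rose and 2 fell (median 0.0066). In the small subunit, 3 of 15 genes with a bacterial counterpart rose and 2 fell (median 0.097), and of 9 specific to mitochondria 1 rose and 1 fell (median -0.15). The 5 ribosomal proteins with other symbols had no call in limma. CHCHD1 had the highest log2 fold change (0.22, limma adjusted p 0.200) and AURKAIP1 the lowest (-0.15, limma adjusted p 0.283), with GADD45GIP1, DAP3 and PTCD3 between -0.047 and -0.0057.

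The position of the members in the genome was compared with the fold changes of their neighbours, an analysis chosen after the values had been seen. The neighbour counts stand beside a background in which 16.2% of all tested genes rose and 10.8% fell. MRPL18 (chromosome 6 from 159789812, plus strand, GRCh38) lies on the long arm of chromosome 6. The same arm holds the gene of miR-3662, from 134979355 and thus far outside 1 Mb of MRPL18. Of 6 other tested genes within 1 Mb of MRPL18, 5 fell and none rose, with a median of -0.92. Its nearest tested neighbours were TCP1 (-1.32), a subunit of a cytosolic chaperonin, and ACAT2 (-0.68), an acetyl-CoA acetyltransferase, and both fell. MRPL18 itself changed by -0.78.

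MRPS2 (chromosome 9 from 135499965) had 17 such neighbours, of which 10 fell and none rose, with a median of -0.67. Next to it, PPP1R26 (-1.05) and PAEP (-3.29) fell, while C9orf116 was at -0.0032 (limma adjusted p 0.991). MRPL41 (chromosome 9 from 137551879) had 38 neighbours, of which 13 fell and 4 rose, with a median of -0.30. On the other side, MRPS18C (chromosome 4 from 83456058) had 12 neighbours, of which 8 rose and none fell, with a median of 0.52.

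Neighbours of 5 further members past the test are given for comparison, again beside 16.2% of all tested genes that rose and 10.8% that fell. MRPS16, which rose, had 25 neighbours, of which 5 rose and 1 fell (median 0.26), and MRPL17, which also rose, had 15, of which 4 rose and none fell (median 0.24). MRPS33 (chromosome 7 from 141002610) had 9 neighbours, of which 1 rose and none fell (median 0.13). MRPL4 (chromosome 19 from 10251951), which fell, had 43 neighbours, of which 11 fell and 3 rose (median -0.041). MRPL10 (chromosome 17 from 47823272), which fell, had 19 neighbours, of which 4 fell and 6 rose (median 0.25). For the other members that fell, the neighbours' medians were 0.045 (MRPL12), -0.00054 (MRPL14) and 0.11 (MRPS27). MRPS9 had 4 neighbours, none of which passed (median -0.40), and MRPS30 had no neighbour within 1 Mb. For the other members that rose, the medians were 0.00027 (MRPL34), 0.095 (MRPS6) and -0.055 (MRPL53). Over the 72 tested rows (70 protein-coding members and both tested pseudogenes) with at least 5 neighbours, the row's own fold change and its neighbours' median had a Spearman rho of 0.36, and over 10108 tested genes with as many neighbours rho was 0.27. These are descriptions over genes of the same 4 libraries. Within 3 Mb, a window also added after the values had been seen, 16 of 20 neighbours of MRPL18 fell and none rose, and 35 of 78 neighbours of MRPS2 fell and 6 rose. Whether the copy number of these regions differed between WT and KO cells was not tested.

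**Figure D4:**
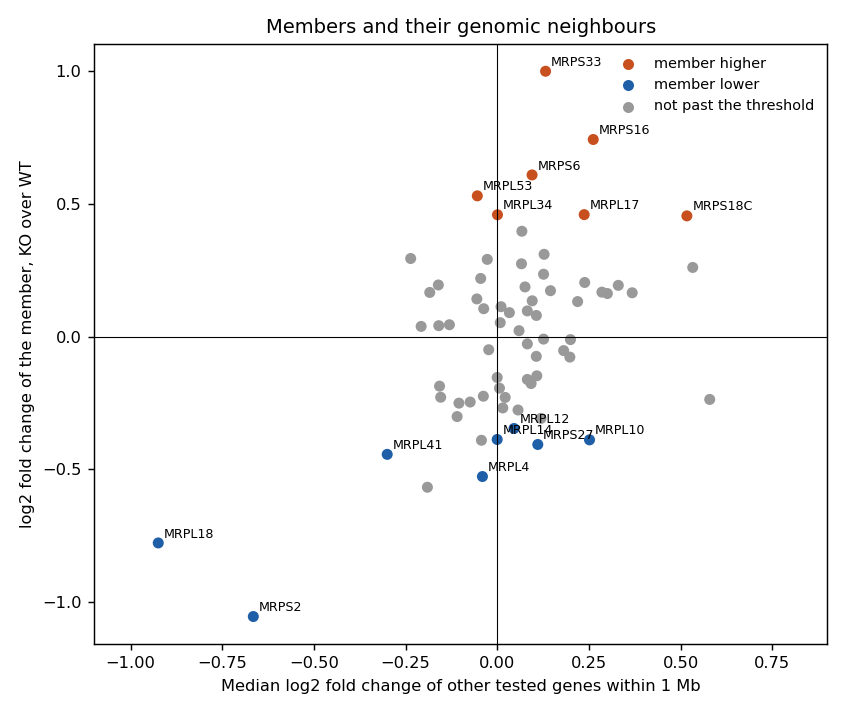
Log2 fold change of each member (vertical axis) against the median log2 fold change of the other tested genes within 1 Mb (horizontal axis), for protein-coding members with at least 5 such genes. MRPL18 and MRPS2 sit at the lower left, where the neighbours' medians were -0.92 and -0.67, while MRPS33 and MRPL10 lie where the neighbours' medians were 0.13 and 0.25.

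Transcript composition was also set beside the calls. The median GC content was 47.7% in the 7 transcripts that rose and 55.3% in the 10 that fell, against 49.3% in all tested genes. MRPL41 had 72.0% GC. Across genes, Spearman's rho between fold change and GC was -0.079 over the 78 members and -0.17 over 11299 tested genes. The part of GC in these results was not tested.

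The 2 KO libraries differed in the level of these genes. KO replicate 2 was above KO replicate 1 in 66 of 78 members (84.6%), against 52.2% of all tested genes, with a median log2 difference of 0.18 in MRPL and 0.17 in MRPS genes. In WT, replicate 2 was above replicate 1 in 52 of 78 (66.7%), against 55.2% of all tested genes, with medians of 0.045 and 0.091. The gap between the KO libraries therefore exceeded the median difference between KO and WT in both subunits. Without KO replicate 1 the median log2 fold change was 0.12 in MRPL and 0.0049 in MRPS genes, and without KO replicate 2 it was -0.040 and -0.15, so the sign of both medians depended on which KO library was left out.

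**Figure D5:**
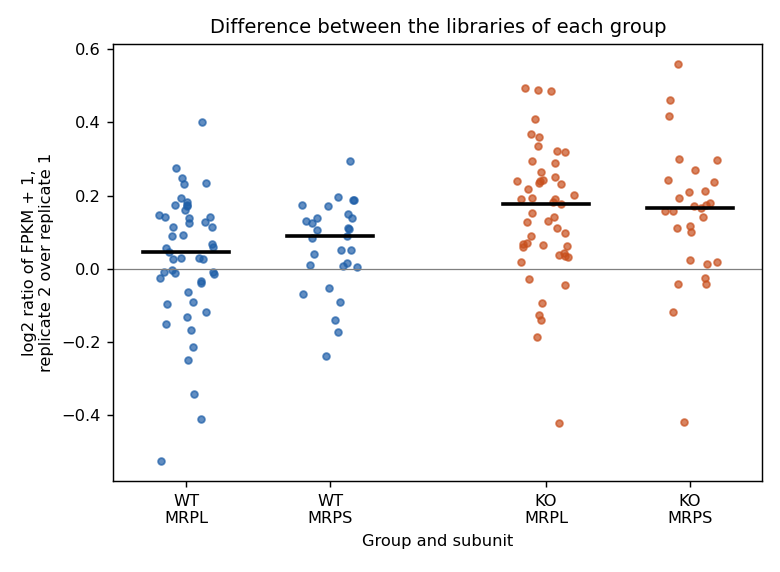
Log2 ratio of FPKM + 1 between replicate 2 and replicate 1 of each group, for the MRPL and MRPS genes (points are genes, black lines medians). The KO medians of 0.18 and 0.17 lie above the WT medians of 0.045 and 0.091.

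The machinery around the mitochondrial ribosome was read from lists of its factors. Of all tested genes 16.2% rose and 10.8% fell (13.2% and 13.7% after scaling), and no list was tested against these shares. Of 27 assembly factors 1 rose (3.7%) and 4 fell (14.8%), or 1 and 6 after scaling, with a median of -0.10. DHX30, an RNA helicase needed for assembly, was at 76.21 and 78.12 FPKM in WT and at 46.24 and 41.15 in KO (-0.81, limma adjusted p 0.0044). The ribosomal RNA methyltransferase genes MRM3 (-0.62) and MRM1 (-0.68) fell, and YBEY, an endoribonuclease gene, rose by 0.72. DHX30 passed with each library left out, whereas MRM3 did not without WT replicate 2 (limma adjusted p 0.0524), YBEY not without WT replicate 1 (0.0532) and MRM1 not without either KO library (up to 0.0772).

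Of 19 translation factors 2 rose (10.5%) and 2 fell (10.5%), or 2 and 4 after scaling, with a median of -0.10. MTRF1L, a release factor, was at 15.26 and 13.83 FPKM in WT and at 6.79 and 7.38 in KO (-0.94, limma adjusted p 0.0049), and passed with each library left out. Its gene lies on chromosome 6 from 152987362, on the same arm as MRPL18, and so does C6orf203 (from 107028199), which rose. TUFM, the elongation factor that brings aminoacyl-tRNA to the ribosome, was at 204.6 and 203.33 FPKM in WT and at 160.18 and 161.52 in KO (-0.34, limma adjusted p 0.0405), but passed in none of the 4 fits without a library (up to 0.178). The initiation factor gene MTIF3 (0.66) and C6orf203 (0.87), now MTRES1, rose, and neither passed without WT replicate 1 or without KO replicate 2 (up to 0.0905 and 0.0823).

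Genes for the transcription, copying and processing of mitochondrial nucleic acids had 1 rise and 5 falls among 20 (1 and 7 after scaling), with a median of -0.16. ELAC2, which trims the 3′ ends of tRNAs, was at 80.34 and 80.69 FPKM in WT and at 47.59 and 50.05 in KO (-0.71, limma adjusted p 0.0053). C10orf2, the gene of the replicative helicase Twinkle, fell by 0.69 on the log2 scale and POLRMT, the mitochondrial RNA polymerase, by 0.54, while FASTK, an RNA-binding protein gene, rose by 0.54. ELAC2 and C10orf2 passed with each library left out. POLRMT passed only without WT replicate 1 (otherwise up to 0.108) and FASTK only without KO replicate 2 (otherwise up to 0.0770).

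Of 17 mitochondrial tRNA synthetase genes, 11.8% fell, which were EARS2 (-0.45) and MARS2 (-0.60), and none rose. After scaling 3 fell and none rose. EARS2 passed in none of the fits without a library (up to 0.147) and MARS2 only without WT replicate 2 (otherwise up to 0.113). Of 7 tested regulators of mitochondrial gene expression 2 fell (28.6%) and none rose (3 fell and none rose after scaling). PPRC1, a coactivator related to PGC-1, was at 25.13 and 22.11 FPKM in WT and at 12.96 and 11.6 in KO (-0.89, limma adjusted p 0.0056), and passed with each library left out. MYC fell by 0.57 on the log2 scale and did not pass without WT replicate 1 (limma adjusted p 0.0553). NRF1 (-0.34), GABPA (0.37), YY1 (-0.14) and ESRRA (-0.078) did not pass, and PPARGC1A and PPARGC1B were below the minimum level.

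For comparison, 9 of 82 tested cytosolic ribosomal protein genes rose and 5 fell (6 and 10 after scaling), with a median of 0.073. Of 78 tested nuclear subunits of respiratory complexes and ATP synthase, whose other subunits the mitochondrial ribosome makes, 25 rose (32.1%) and 2 fell (2.56%). Their median was 0.21, and after scaling 20 rose and 2 fell. The mitochondrial ribosomal protein genes, with 7 rises (8.97%) and 10 falls (12.8%) among 78, were set beside these 2 sets without a test of the difference.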

How the data were processed

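The authors deposited FPKM values for each gene in each library, as the column names state (per the file headers). Per the submitters' processing notes, HISAT, StringTie, Cufflinks and GATK and the build hg38 were used; the sources used here give no roles, versions or filters. Depth is unknown, so no counting error is given. Values were analysed as log2(FPKM + 1), so fold changes of low genes are understated. The 11786 genes that reached 1 FPKM in 2 or more libraries were fitted together with limma 3.58.1 (R 4.3.3), a moderated test with a mean-variance trend, Benjamini-Hochberg adjustment and a threshold of 0.05. The fit was tested on simulated data. Alternatives were another pseudocount, filters, scaling, no trend, a replicate block and leaving out each library. Named were all members past the threshold, the 3 highest and lowest of each subunit, chosen structural members, and up to 3 rising and falling genes of each list with the smallest p. Positions came from RefSeq (GRCh38.p14), and transcripts from GENCODE 29. Python 3.11.15 and pandas 2.3.3 handled tables. The members and lists were chosen with earlier results of these data known. No protein sequences were used here.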

Additional observations from a re-analysis of the deposited data

How the results depend on the processing

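With 7 members higher and 10 lower, the count of higher members was 0 without the filter on low values, 3 after scaling by the median of ratios, 3 in limma without a trend, and 2 to 7 with a library left out. The count of lower members was 2 without the filter, 4 without a trend and 3 to 4 with a library left out. Without the filter, of the 17 calls those of MRPS2 and MRPL18 were kept; at 5 FPKM all 17 were kept. The cause was not tested. After scaling, 13.2% of all tested genes were higher and 13.7% lower. For the other alternatives the shares of all tested genes are not given. Whether calls were lost among the members more than among other genes therefore cannot be told. MRPS2 and MRPL18 passed under all 10 alternatives. The MRPL median log2 fold change was -0.031 after scaling and ranged from -0.040 to 0.12 with a library left out. The MRPS median, -0.074, was -0.14 after scaling and ranged from -0.15 to 0.0049 with a library left out; it was -0.0067 without WT replicate 2 and turned positive without KO replicate 1. No call changed direction under these alternatives.

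The replicate numbers of the titles do not say that libraries were paired. Across 11786 genes the deviations of same-numbered libraries from their group means correlated at -0.177. With the replicate block 7 members were higher and 7 lower, and 13 of the 17 calls were kept.

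With 2 libraries a group and no counts, small differences could not be resolved, and the precision of low genes such as MRPL45 is unknown.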
